A study of Mus musculus with 6 samples.

Results

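The genes described here encode the enzymes, transporters and regulators of glycolysis and of the response to low oxygen. They were taken by symbol from a written list of 37 genes, all of which were found among the 32350 entries of the deposited table. Each gene was measured by RNA sequencing in calvaria, the bones that roof the skull, of 3 mutant pups and 3 heterozygous pups. The mutants carried *Tmem53*-/- and the heterozygotes *Tmem53*+/-, and all were of the B6N strain at postnatal day 3. *Tmem53* encodes a protein of the nuclear envelope. The study made its mutant lines by CRISPR/Cas9 with frameshift alleles and followed one of them closely, while the labels of these pups name no line. The heterozygotes were littermates of the mutants, no wild type was included, and each pup gave 1 library. Levels are given as FPKM, mapped fragments scaled to the length of the transcript and the size of the library, so that levels of different genes can be set side by side.

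Glycolysis splits glucose into pyruvate, which is then either oxidised in mitochondria or reduced to lactate. Bone-forming osteoblasts make much of their ATP by this route even when oxygen is present, and chondrocytes live in cartilage without blood vessels. When oxygen falls, prolyl hydroxylases no longer mark the alpha subunits of hypoxia-inducible factor (HIF) for degradation, and HIF then binds promoters that contain the core letters ACGTG or GCGTG. Its targets include most glycolytic genes, the glucose transporter *Slc2a1*, the angiogenic factor *Vegfa*, and its own brakes *Egln1* and *Egln3*. HIF alpha subunits are controlled mainly through protein stability, so the mRNA of *Hif1a* is no measure of HIF activity.

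The libraries were not alike within their groups. Summed FPKM ran from 569846 to 611928. The paper gives only an approximate number of reads per sample, and the table holds no read counts, so that the depth of each library is unknown. Across genes, which are not independent replicates, Pearson's r of log2(FPKM + 0.5) was 0.982 between mutant replicates 1 and 2 but 0.952 and 0.959 between these and mutant replicate 3. It was 0.991 between heterozygous replicates 1 and 3 but 0.956 and 0.957 between these and heterozygous replicate 2. By *Xist* and Y-linked genes heterozygous replicates 1 and 3 were female, and the other 4 pups were male. *Tmem53* itself was at 13.9, 10.9 and 10.04 FPKM in the mutants and 7.22, 6.38 and 7.16 FPKM in the heterozygotes, which is no check of a frameshift allele. Marker levels of several cell types also differed. Of 9 tested entries of 8 osteoblast markers, 6 were higher in the mutants by limma and 0 lower, among them *Alpl* at 138, 121 and 182 FPKM in the mutants and 42.3, 51.5 and 50.4 FPKM in the heterozygotes. The 8 summed to 4239, 3561 and 331 FPKM in the mutants and 2637, 2205 and 2381 FPKM in the heterozygotes, sums that turn on *Spp1* and *Col1a2*, each listed at 0 in some libraries of both groups, and the part of osteoblasts in the results was not tested. The 10 cartilage markers summed to 4108, 2205 and 533 FPKM in the mutants and to between 114 and 121 FPKM in the heterozygotes, while the 9 osteoclast markers summed to between 204 and 340 FPKM in the mutants and to 3885, 685 and 2774 FPKM in the heterozygotes. The 7 macrophage markers summed to 284, 413 and 39.2 FPKM in the mutants and to between 568 and 942 FPKM in the heterozygotes. All 7 markers of red blood cells and 6 of the 7 of endothelium had a mean under 0.5 FPKM, with *Hba-a1*, *Hbb-b1*, *Cldn5* and *Tie1* listed at 0 in every library.

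Between mutant and heterozygous calvaria 1 of the 37 genes passed the test. *Pkm2*, the pyruvate kinase that ends glycolysis, was lower, and 0 genes were higher by limma on log2(FPKM + 0.5) at a Benjamini-Hochberg adjusted p under 0.05. This compares with 3.63% of the 13535 genes tested that were lower and 3.44% that were higher at this threshold, 7.06% in all. At an unadjusted p under 0.05 limma gave 10 of the 37 genes, 10 lower and 0 higher in the mutants, against 12.9% of all genes lower and 15.0% higher. All 3 mutants lay below all 3 heterozygotes for 9 genes, where 16.0% of all genes did so, and above them for 2 genes, where 21.2% did so. The median log2 fold change was -0.22 over the 25 glycolysis genes, of which 19 were negative, and 0.21 over the 12 hypoxia genes, of which 4 were negative, though this second median was -0.20 without mutant replicate 3. Over all genes tested it was 0.05. For 27 of the 37 genes the 95% confidence interval of the fold change included 0, and with 3 pups in each group these intervals were wide. In bulk tissue fewer cells of a type and less RNA per cell cannot be told apart. The fit held no term for sex, and all 3 mutants were male while heterozygous replicates 1 and 3 were female. Sex and genotype are thus partly mixed in this comparison.

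**Figure D1:**
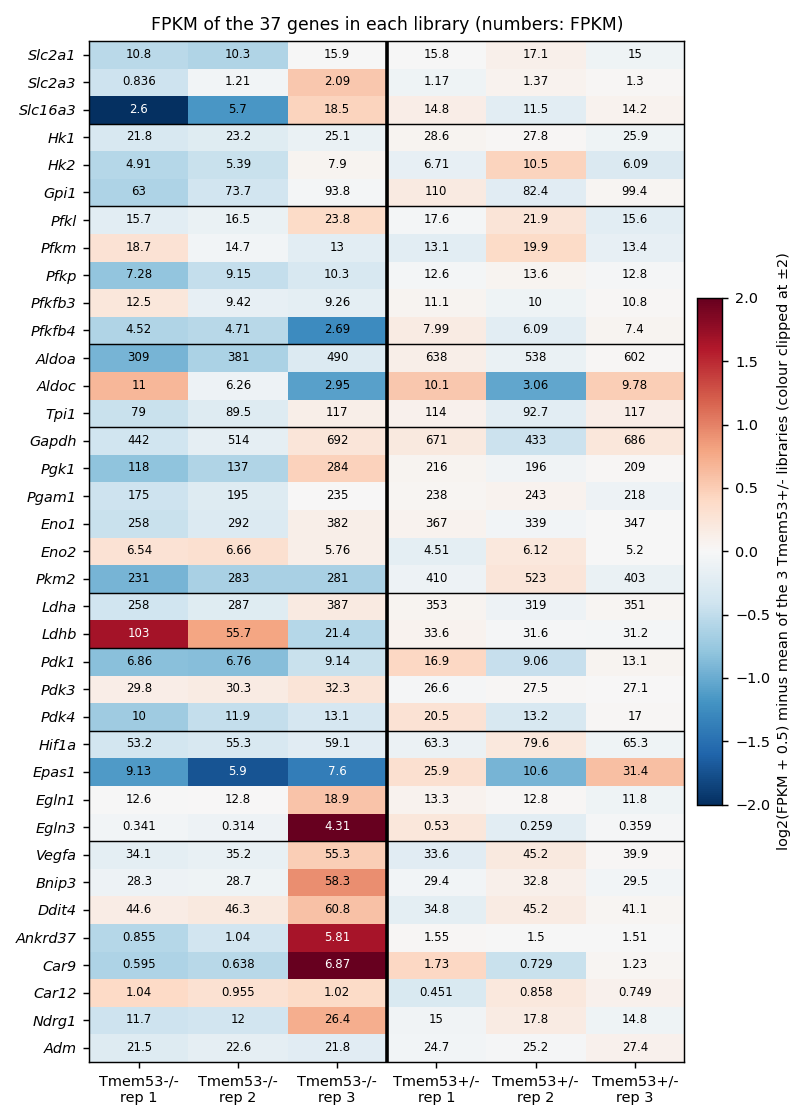
FPKM of the 37 genes (rows, in the order of their roles) in the 3 *Tmem53*-/- and 3 *Tmem53*+/- libraries (columns), with the colour giving log2(FPKM + 0.5) minus the mean of the heterozygotes. The blue of mutant replicates 1 and 2 covers most glycolysis rows, while mutant replicate 3 is pale or red in many of them and darkest red in *Egln3* (4.31 FPKM) and *Car9* (6.87 FPKM).

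All 37 genes passed the filter, a mean over the 6 libraries of 0.5 FPKM or more, and none was listed at 0 in any library. Several of them, *Gapdh*, *Pgk1*, *Ldha*, *Eno1* and *Aldoa* among them, have processed copies elsewhere in the genome, and how reads that fit several places were counted is not given in the sources used here. Levels spanned a wide range, with 8 genes at a mean of at least 100 FPKM, 20 between 10 and 100 FPKM, and 9 under 10 FPKM. The highest mean was that of *Gapdh* at 573 FPKM, and the lowest was that of *Car12* at 0.846 FPKM. The mean of *Egln3* was 1.02 FPKM over the 6 libraries but would have been under 0.5 FPKM without mutant replicate 3. The glycolytic enzymes and lactate dehydrogenases, 17 genes, summed to 2122, 2388 and 3071 FPKM in the mutants and to 3243, 2900 and 3153 FPKM in the heterozygotes. Their mean sum was 2527 ± 489 FPKM in the mutants and 3099 ± 178 FPKM in the heterozygotes (SD, n = 3 each), a ratio of 0.816 (exact permutation test, two-sided, p = 0.2, where 3 against 3 cannot go below 0.1). The groups overlapped, since mutant replicate 3 lay above heterozygous replicate 2.

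Among the transporters, *Slc2a1* encodes GLUT1, the main glucose carrier of most tissues. It was at 10.8, 10.3 and 15.9 FPKM in the mutants and 15.8, 17.1 and 15.0 FPKM in the heterozygotes. Mutant replicates 1 and 2 were thus at 0.662 of the heterozygous mean and mutant replicate 3 at 0.996 of it. The log2 fold change was -0.38 (SE 0.173, adjusted p by limma = 0.208). *Slc16a3* encodes MCT4, which carries lactate out of cells, and was at 2.60, 5.70 and 18.5 FPKM in the mutants and 14.8, 11.5 and 14.2 FPKM in the heterozygotes. Mutant replicate 3 stood above every heterozygote and mutant replicates 1 and 2 below every one, and no other glycolysis gene was higher by as much in mutant replicate 3 than in the other mutants on the log2 scale. Its log2 fold change was -0.96 (SE 0.612, adjusted p by limma = 0.348). Without mutant replicate 3 limma called 3 of the 37 genes lower, both of these transporters and *Pgk1*, and none higher, against 2.66% of all genes lower and 2.81% higher, 5.47% in all. The log2 fold change was then -0.57 for *Slc2a1* (adjusted p = 0.0439, 0.0105 to 0.434 over the alternatives) and -1.67 for *Slc16a3* (adjusted p = 0.044, 0.0188 to 0.701 over the alternatives). Both low ends came from leaving out mutant replicate 3 and heterozygous replicate 2 together. That setting was chosen after seeing the data, and in it sex and genotype cannot be told apart. *Slc2a3*, the high-affinity glucose transporter GLUT3, was low throughout, from 0.836 to 2.09 FPKM in the mutants and from 1.17 to 1.37 FPKM in the heterozygotes.

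The first steps in the cell, the phosphorylation of glucose and its isomerisation, leaned the same way without passing the test. *Gpi1*, glucose phosphate isomerase, was the most abundant of these genes, at 63.0, 73.7 and 93.8 FPKM in the mutants and 109.8, 82.4 and 99.4 FPKM in the heterozygotes. Mutant replicate 3 lay inside the range of the heterozygotes and mutant replicates 1 and 2 below it (log2 fold change -0.35, SE 0.179, adjusted p by limma = 0.256). *Hk2*, the hexokinase that insulin and HIF induce, was at 4.91, 5.39 and 7.90 FPKM in the mutants and 6.71, 10.5 and 6.09 FPKM in the heterozygotes. Here too mutant replicates 1 and 2 were the lowest libraries, and heterozygous replicate 2 was the highest (log2 fold change -0.32, SE 0.251, adjusted p by limma = 0.44). *Hk1*, the constitutive hexokinase, ran from 21.8 to 25.1 FPKM in the mutants and from 25.9 to 28.6 FPKM in the heterozygotes, with no overlap (log2 fold change -0.23, SE 0.0909, adjusted p by limma = 0.165). The share of *Hk2* in the sum of *Hk1* and *Hk2* was 20.4 ± 3.097% in the mutants and 21.8 ± 4.87% in the heterozygotes (SD, n = 3 each, exact permutation test, two-sided, p = 0.5). *Hk3*, a further hexokinase outside the written list, is not in this share. It was at 8.18, 10.3 and 0.980 FPKM in the mutants and 17.1, 14.3 and 17.5 FPKM in the heterozygotes. *Hk3* was above *Hk2* in every library but mutant replicate 3. Its groups did not overlap (log2 fold change -1.69, SE 0.724, adjusted p by limma = 0.189).

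Phosphofructokinase, the committed step of glycolysis, is built from liver, muscle and platelet subunits, and only the platelet subunit separated the genotypes. *Pfkp* was at 7.28, 9.15 and 10.3 FPKM in the mutants and 12.6, 13.6 and 12.8 FPKM in the heterozygotes. Every mutant lay below every heterozygote, with a log2 fold change of -0.53 (SE 0.136, adjusted p by limma = 0.0656, 0.0237 to 0.182 over the alternatives). The low end again came without both mutant replicate 3 and heterozygous replicate 2, the setting chosen after seeing the data. The share of *Pfkp* in the sum of the 3 subunits was 17.5, 22.7 and 21.9% in the mutants and 29.1, 24.6 and 30.7% in the heterozygotes, a difference of -7.43 points (exact permutation test, two-sided, p = 0.1, its minimum). *Pfkl*, the liver subunit, was at 15.7, 16.5 and 23.8 FPKM in the mutants and 17.6, 21.9 and 15.6 FPKM in the heterozygotes. Its groups overlapped, with a log2 fold change of 0.01 (95% interval -0.46 to 0.49), and so did those of the muscle subunit *Pfkm*, with 13.0 to 18.7 FPKM in the mutants and 13.1 to 19.9 FPKM in the heterozygotes. Of the bifunctional enzymes that set the level of the regulatory fructose bisphosphate, an activator of phosphofructokinase, *Pfkfb4* was at 4.52, 4.71 and 2.69 FPKM in the mutants and 7.99, 6.09 and 7.40 FPKM in the heterozygotes. It was one of 5 genes for which mutant replicate 3 was the lowest library. The groups did not overlap, and the log2 fold change was -0.80 (SE 0.217, adjusted p by limma = 0.0743). *Pfkfb3*, the form with the highest kinase activity, was at 12.5, 9.42 and 9.26 FPKM in the mutants and 11.1, 10.05 and 10.8 FPKM in the heterozygotes, with overlapping groups (log2 fold change -0.05, 95% interval -0.37 to 0.28).

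*Aldoa*, the aldolase that splits the hexose, had the next highest level after *Gapdh* among the 37 genes. It was at 309, 381 and 490.1 FPKM in the mutants and 638, 538 and 602 FPKM in the heterozygotes. All 3 mutants lay below all 3 heterozygotes, and mutant replicate 3 came nearest to them. The mean was 393 ± 91.1 FPKM in the mutants and 592 ± 50.7 FPKM in the heterozygotes (SD, n = 3 each), which gives a log2 fold change of -0.61 (SE 0.193, adjusted p by limma = 0.103, 0.00982 to 0.274 over the alternatives). The low end is that without both mutant replicate 3 and heterozygous replicate 2, a setting chosen after seeing the data. As a share of 15 glycolytic enzymes *Aldoa* made up 17.6, 18.6 and 18.4% in the mutants and 22.3, 21.1 and 21.7% in the heterozygotes. In this measure mutant replicate 3 lay between the other mutants (exact permutation test, two-sided, p = 0.1, its minimum). The brain form *Aldoc* showed no such order, with 11.0, 6.26 and 2.95 FPKM in the mutants and 10.1, 3.06 and 9.78 FPKM in the heterozygotes. *Tpi1*, triose phosphate isomerase, ran from 79.0 to 117 FPKM in the mutants and from 92.7 to 117 FPKM in the heterozygotes.

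*Pkm2*, which the file places at chr9:59503611-59566633 of NCBI build37.2, was at 231, 283 and 281 FPKM in the mutants and 410.1, 523 and 403 FPKM in the heterozygotes. The gap between the groups was slightly wider than the range within either, and mutant replicate 3 did not stand apart from the other mutants. The mean was 265 ± 29.4 FPKM in the mutants and 446 ± 67.3 FPKM in the heterozygotes (SD, n = 3 each), a ratio of 0.595. The log2 fold change was -0.74 (SE 0.156, 95% interval -1.12 to -0.37, adjusted p by limma = 0.0438). It stayed negative in all 18 alternative settings, between -0.62 and -0.99, but its adjusted p ranged from 0.0147 to 0.143. The lowest came without both mutant replicate 3 and heterozygous replicate 2, a setting chosen after seeing the data. The log2 fold change of -0.99 came with sex as a covariate and rests on heterozygous replicate 2 as the only male heterozygote. The call was lost without mutant replicate 1 (0.143), 2 (0.098) or 3 (0.0652) and without heterozygous replicate 1 (0.135) or 3 (0.122), each of which leaves fewer libraries for the test, and in other settings that include no filter on low values (0.0681) and no pooling of the spread (0.105). The symbol covers both products of the gene, the adult form and the M2 form, which the table does not separate, and the locus overlaps entries named *Gramd2* and 4933407I18Rik. *Pkm2* is the called gene, so the HIF core letters near one of its RefSeq start sites, where the gene is named *Pkm*, are shown here. The stretch lies at chr9:59657140-59657169 of GRCm38.p6 on the plus strand, with the letters ACGTG on the opposite strand, and is written 5′ to 3′ along the gene with the match in capitals.
Pkm2: ctccgatccggtCACGTccgcgccgcagca

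**Figure D2:**
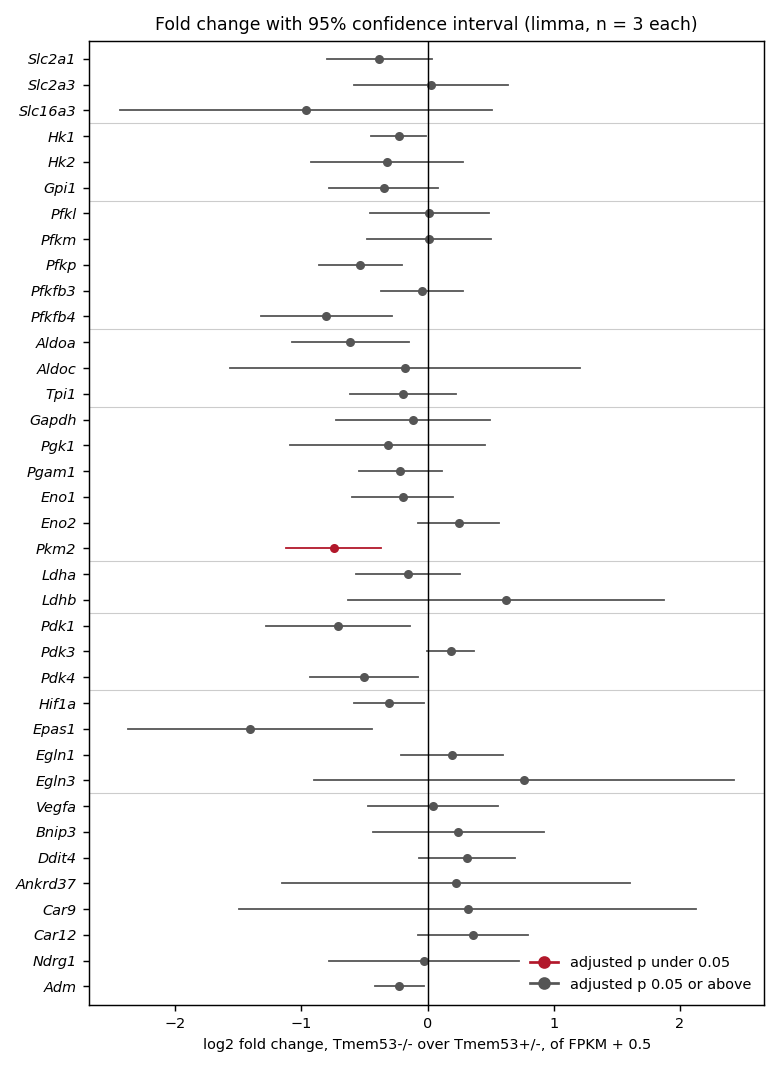
Log2 fold change of FPKM + 0.5, *Tmem53*-/- over *Tmem53*+/- (horizontal axis), with its 95% confidence interval from limma for each of the 37 genes (rows, in the order of their roles, n = 3 each). The only interval in red is that of *Pkm2* (-1.12 to -0.37), and the widest are those of *Car9*, *Egln3* and *Slc16a3*, whose mutants disagree among themselves.

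The other enzymes of lower glycolysis shared a different layout, with mutant replicates 1 and 2 low and mutant replicate 3 within or above the range of the heterozygotes. *Gapdh*, glyceraldehyde phosphate dehydrogenase and a common reference gene, was at 442, 514 and 692 FPKM in the mutants and 671, 433 and 686 FPKM in the heterozygotes. The groups overlapped, with heterozygous replicate 2 the lowest of all (log2 fold change -0.12, 95% interval -0.72 to 0.49). *Pgk1*, phosphoglycerate kinase, was at 118, 137 and 284 FPKM in the mutants and 216, 196 and 209 FPKM in the heterozygotes. Mutant replicates 1 and 2 were at 0.616 of the heterozygous mean and mutant replicate 3 at 1.37 times it, which left a log2 fold change of -0.32 (SE 0.321, adjusted p by limma = 0.564) with mutant replicate 3 and of -0.70 without it (adjusted p = 0.0409, 0.00722 to 0.919 over the alternatives). The low end came from leaving out heterozygous replicate 2 as well, a setting chosen after seeing the data. *Pgam1*, phosphoglycerate mutase, ran from 175 to 235 FPKM in the mutants and from 218 to 243 FPKM in the heterozygotes, and *Eno1*, the ubiquitous enolase, from 258 to 382 FPKM in the mutants and from 339 to 367 FPKM in the heterozygotes. *Eno2*, the neuronal enolase, was the exception in this step, since mutant replicates 1 and 2 (6.54 and 6.66 FPKM) and not replicate 3 (5.76 FPKM) lay above all heterozygotes (4.51 to 6.12 FPKM).

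The lactate dehydrogenases did not share one layout. *Ldha*, whose subunit favours the making of lactate, was at 258, 287 and 387 FPKM in the mutants and 353, 319 and 351 FPKM in the heterozygotes. It had the layout of lower glycolysis (log2 fold change -0.15, SE 0.172, adjusted p by limma = 0.604). *Ldhb*, whose subunit favours the reverse reaction, was at 103, 55.7 and 21.4 FPKM in the mutants and 33.6, 31.6 and 31.2 FPKM in the heterozygotes. Mutant replicates 1 and 2 lay above all heterozygotes and mutant replicate 3 below all of them (log2 fold change 0.62, SE 0.52, adjusted p by limma = 0.474). *Ldhb* thus made up 28.5, 16.3 and 5.24% of lactate dehydrogenase mRNA in the mutants and 8.70, 9.01 and 8.17% in the heterozygotes (exact permutation test, two-sided, p = 0.4). The order of the mutants in *Ldhb* was that of the summed cartilage markers, 4108, 2205 and 533 FPKM, though that sum was above all heterozygotes in mutant replicate 3, where *Ldhb* was not. The part of cartilage in this result was not tested.

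The pyruvate dehydrogenase kinases, which close the entry of pyruvate into the citric acid cycle, differed in direction. *Pdk3* was the most abundant, at 29.8, 30.3 and 32.3 FPKM in the mutants and 26.6, 27.5 and 27.1 FPKM in the heterozygotes. It was one of the 2 genes with all mutants above all heterozygotes, by 0.18 on the log2 scale (SE 0.0779, adjusted p by limma = 0.188). *Pdk4*, a kinase induced in fasting, was at 10.03, 11.9 and 13.1 FPKM in the mutants and 20.5, 13.25 and 17.0 FPKM in the heterozygotes. The groups were separated by a narrow margin, between mutant replicate 3 and heterozygous replicate 2 (log2 fold change -0.50, SE 0.179, adjusted p by limma = 0.131). *Pdk1*, a HIF target, ran from 6.76 to 9.14 FPKM in the mutants and from 9.06 to 16.9 FPKM in the heterozygotes (log2 fold change -0.71, SE 0.237, adjusted p by limma = 0.116). *Pdk3* accordingly made up 63.8, 61.9 and 59.3% of the sum of *Pdk1*, *Pdk3* and *Pdk4* in the mutants. In the heterozygotes it made up 41.6, 55.2 and 47.4%, without overlap and with the mutants 13.6 points higher (exact permutation test, two-sided, p = 0.1, its minimum). *Pdk2*, outside the 37 genes, is not in this share. It was at 11.3, 8.64 and 9.16 FPKM in the mutants and 10.3, 8.38 and 9.52 FPKM in the heterozygotes. Heterozygous replicate 2 was the heterozygote nearest the mutants in this share. Without that library limma called 4 of the 37 genes lower, *Pdk1*, *Pdk4*, *Epas1* and *Pkm2*, and none higher, while 7.94% of all genes were then lower and 8.43% higher. Both heterozygotes left were female and all 3 mutants male, so that sex and genotype cannot be told apart in that setting. With sex as a covariate the log2 fold change was -0.25 for *Pdk1* and -0.19 for *Pdk4*. These 2 values rest on heterozygous replicate 2 as the only male heterozygote.

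**Figure D3:**
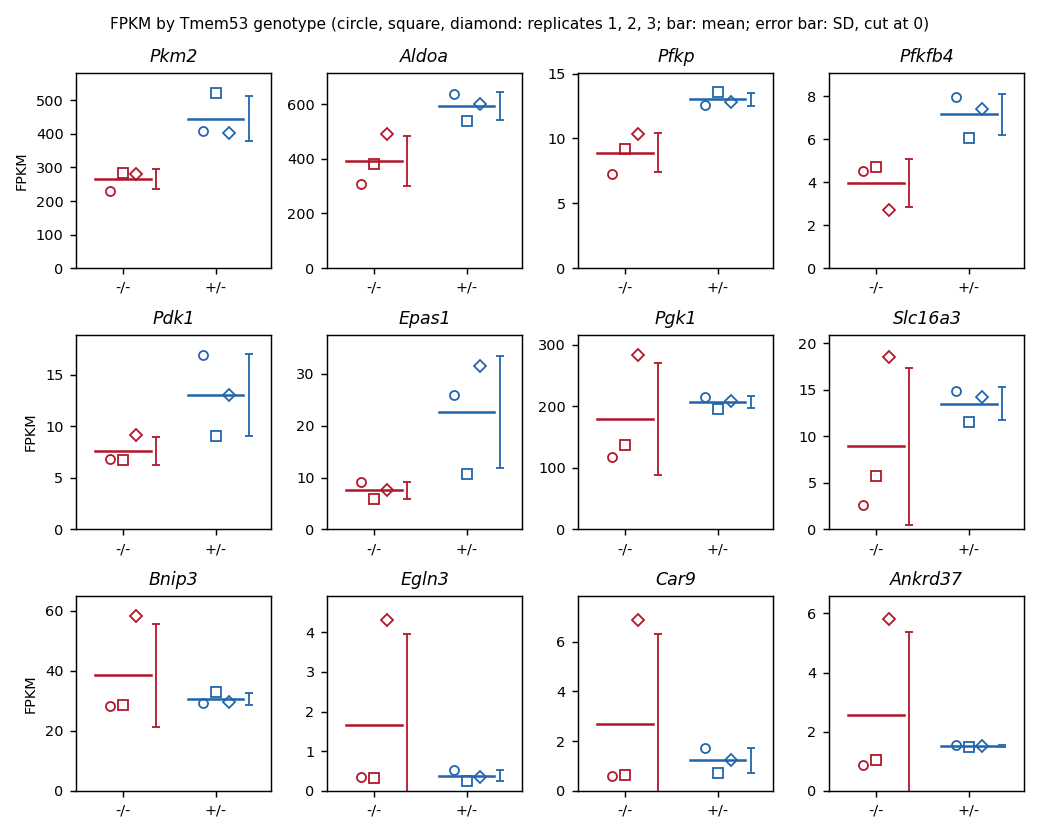
FPKM (vertical axes, from 0) of 12 of the genes in *Tmem53*-/- and *Tmem53*+/- calvaria, with 1 symbol per library, the mean as a bar and the SD as an error bar (n = 3 each). In *Pkm2*, *Aldoa*, *Pfkp*, *Pfkfb4* and *Epas1* all mutants lie below all heterozygotes, while in *Pgk1*, *Slc16a3*, *Bnip3*, *Egln3*, *Car9* and *Ankrd37* mutant replicate 3 (diamond) is the highest library.

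Both HIF alpha subunits were lowest in the mutants. *Hif1a* was at 53.2, 55.3 and 59.1 FPKM in the mutants and 63.3, 79.6 and 65.3 FPKM in the heterozygotes. The groups did not overlap, and the log2 fold change was -0.30 (SE 0.115, adjusted p by limma = 0.149, at most 0.328 over the alternatives). With the sex of the pup as a covariate it was -0.51, a value that rests on heterozygous replicate 2 as the only male heterozygote. *Epas1* encodes HIF-2 alpha and is known from endothelium among other cells. On log2(FPKM + 0.5) it had the largest fold change in size of the 37 genes. It was at 9.13, 5.90 and 7.60 FPKM in the mutants and 25.9, 10.6 and 31.4 FPKM in the heterozygotes. All mutants lay below all heterozygotes, but heterozygous replicate 2 was much nearer the mutants than heterozygous replicates 1 and 3. The log2 fold change was -1.41 (SE 0.401, adjusted p by limma = 0.0825, and 0.24 without heterozygous replicate 1). It was -1.87 without heterozygous replicate 2 (adjusted p by limma = 0.0111), where both heterozygotes left were female and sex and genotype cannot be told apart. The same holds when mutant replicate 3 is left out as well, a setting chosen after seeing the data (adjusted p by limma = 0.00643, the lowest over the alternatives). Osteoclast markers moved with this gene, at 204, 229 and 340 FPKM in the mutants and 3885, 685 and 2774 FPKM in the heterozygotes, with *Tm7sf4* and *Siglec15* listed at 0 in mutant replicate 3. So did the 5 adipocyte markers, of which *Fabp4* alone had a mean of 0.5 FPKM or more, with sums of 10.3, 9.75 and 12.4 FPKM in the mutants and 46.7, 11.0 and 31.1 FPKM in the heterozygotes. Endothelial markers were near 0 in every library, with a sum of 0.838 to 1.49 FPKM in the mutants and 0.98 to 1.33 FPKM in the heterozygotes. The part of osteoclasts and adipocytes in this result was not tested. Sex moved with it as well, since the female pups were the heterozygotes with the higher values. With sex as a covariate the log2 fold change was -0.48, which rests on heterozygous replicate 2 as the only male heterozygote. The share of *Epas1* in the 2 subunits was 14.7, 9.64 and 11.4% in the mutants and 29.0, 11.8 and 32.5% in the heterozygotes.

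Mutant replicate 3 was the highest of the 6 libraries for 8 of the 12 hypoxia genes, against 27.2% of all genes tested. This count was made after the library had been seen to stand apart and carries no test. *Ddit4*, an inhibitor of mTOR signaling, was the most abundant of the hypoxia genes after *Hif1a*. It was at 44.6, 46.3 and 60.8 FPKM in the mutants and 34.8, 45.2 and 41.1 FPKM in the heterozygotes. *Vegfa*, which recruits blood vessels, was at 34.1, 35.2 and 55.3 FPKM in the mutants and 33.6, 45.2 and 39.9 FPKM in the heterozygotes. In both genes mutant replicate 3 was the highest library, and the groups overlapped (log2 fold change 0.32 for *Ddit4*, adjusted p by limma = 0.244, and 0.04 for *Vegfa*, 0.919). *Egln1*, the main oxygen-sensing prolyl hydroxylase, had the same layout, at 12.6, 12.8 and 18.9 FPKM in the mutants and 11.8 to 13.3 FPKM in the heterozygotes. *Adm*, the vasodilator adrenomedullin, did not, with 21.5 to 22.6 FPKM in the mutants and 24.7 to 27.4 FPKM in the heterozygotes. For this gene the groups did not overlap (log2 fold change -0.22, SE 0.0814, adjusted p by limma = 0.138). *Car12*, a membrane carbonic anhydrase, was the other gene with all mutants above all heterozygotes, at 0.955 to 1.04 FPKM in the mutants and 0.451 to 0.858 FPKM in the heterozygotes (log2 fold change 0.36, SE 0.181, adjusted p by limma = 0.246).

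Mutant replicate 3 was the highest of the 6 libraries for 16 of the 37 genes, where it was so for 27.2% of all genes tested, and the highest of the mutants for 27, against 46.3%. Mutant replicates 1 and 2 lay below all 3 heterozygotes for 23 of the 37 genes, against 21.0% of all genes, and above them for 4, against 25.1%. Mutant replicate 1 alone was the lowest library for 20 genes, against 13.4% of all genes. The median difference from the heterozygous mean on the log2 scale was -0.33 for mutant replicates 1 and 2 and 0.12 for mutant replicate 3, where it was 0.03 and 0.08 over all genes. These counts describe single libraries, were made after the library had been seen to stand apart, and carry no test. Over 2-fold higher in mutant replicate 3 than in the mean of the other mutants, on log2(FPKM + 0.5), were 7 of the 37 genes, against 1.53% of all genes.

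**Figure D4:**
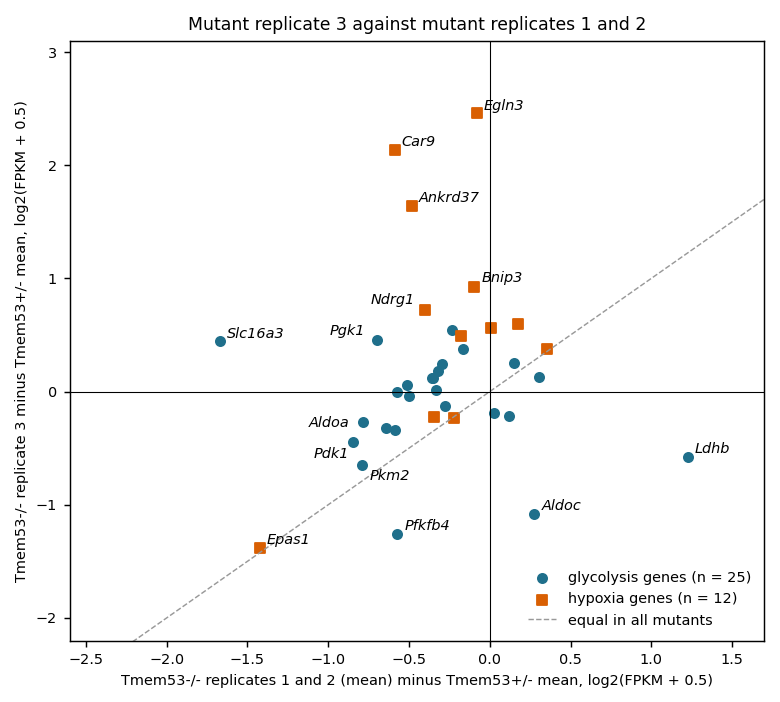
Difference from the heterozygous mean on log2(FPKM + 0.5) in mutant replicate 3 (vertical axis) against the mean of mutant replicates 1 and 2 (horizontal axis), with 1 point for each of the 25 glycolysis genes (circles) and 12 hypoxia genes (squares). Points above the dashed line were higher in mutant replicate 3, most of all *Egln3*, *Car9* and *Ankrd37*, while *Epas1* and *Pkm2* lie near the line and *Ldhb*, *Aldoc* and *Pfkfb4* far under it.

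The 7 genes were *Egln3*, *Car9*, *Ankrd37*, *Slc16a3*, *Ndrg1*, *Pgk1* and *Bnip3*. *Egln3*, a prolyl hydroxylase that HIF itself induces, was at 0.341, 0.314 and 4.31 FPKM in the mutants and 0.530, 0.259 and 0.359 FPKM in the heterozygotes. *Car9*, the carbonic anhydrase widely used as a hypoxia marker, was at 0.595, 0.638 and 6.87 FPKM in the mutants and 1.73, 0.729 and 1.23 FPKM in the heterozygotes, and its locus overlaps the entry of *Tpm2*. *Ankrd37*, an ankyrin repeat protein and HIF target, was at 0.855, 1.04 and 5.81 FPKM in the mutants and 1.55, 1.497 and 1.51 FPKM in the heterozygotes. In these 3 genes mutant replicate 3 was at 13.2, 11.2 and 6.12 times the mean of the other mutants, and it alone carried the positive sign of the group difference. Their log2 fold changes of 0.77, 0.32 and 0.23 became -0.08, -0.59 and -0.48 without it, none of them called. *Bnip3*, which marks mitochondria for removal, was at 28.3, 28.7 and 58.3 FPKM in the mutants and 29.4, 32.8 and 29.5 FPKM in the heterozygotes. *Ndrg1*, a stress-induced gene, was at 11.7, 11.99 and 26.4 FPKM in the mutants and 15.0, 17.8 and 14.8 FPKM in the heterozygotes. In both, mutant replicate 3 was over 2-fold above the mean of the other mutants and above every heterozygote. Marker sums set this library apart too, with macrophage markers at 39.2 FPKM against 284 and 413 FPKM in the other mutants and cartilage markers at 533 FPKM against 4108 and 2205 FPKM, and their part in these values was not tested. Without both mutant replicate 3 and heterozygous replicate 2, a setting chosen after seeing the data, limma called 18 of the 37 genes lower, *Car9*, *Ndrg1*, *Gapdh*, *Aldoa* and *Pgk1* among them, and 2 higher, *Ldhb* and *Eno2*, while 13.3% of all genes were lower and 13.8% higher. In that setting both heterozygotes were female and both mutants male, so that sex and genotype cannot be told apart.

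The letters that HIF binds were looked up in the RefSeq promoters of GRCm38.p6, from 250 bases before to 50 bases after each start, which held 34 of the 37 genes. ACGTG, read on both strands, was in a promoter of 22 of the 34 genes (64.7%), and in that of 29.4% of the tested genes that matched and 21.8% of all genes in the table of promoters. GCGTG was also in 22 of the 34 (64.7%), against 56.1% of tested genes and 35.2% of all genes. Either was in 30 of the 34 (88.2%), against 67.6% of tested genes and 46.7% of all genes. ACGTG on both strands at once forms CACGTG, the E-box that other factors bind, so that a match is not specific to HIF. Of the 7 genes high in mutant replicate 3, 6 had a promoter in the table and all 6 held ACGTG, as did 16 of the other 28 (57.1%), while GCGTG was in 2 of the 6 and in 20 of the other 28 (71.4%). A stretch from each of the 6 follows as the context of the genes that differed most among the mutants, with the match in capitals and 5′ to 3′ along the gene. The stretches lie at chr12:54204086-54204115 (minus strand) for *Egln3*, chr4:43506996-43507025 (plus) for *Car9*, chr8:46000071-46000100 (minus) for *Ankrd37*, chr11:120949028-120949057 (plus) for *Slc16a3*, chrX:106186938-106186967 (plus) for *Pgk1* and chr7:138909596-138909625 (minus) for *Bnip3*.
Egln3: tgtgcatctcagACGTGagatccaggtttt
Car9: ctatttccgatgCACGTacagcccgtccac
Ankrd37: cccagcagtACGTGcctagctcggctcgca
Slc16a3: caggcagcggtgACGTGcgcgggggacgtg
Pgk1: gcgtcgtgcaggACGTGacaaatggaagta
Bnip3: cgcacgcgccgcACGTGccacacgctcccc
The first base of the match lies 229 bases before the start in *Egln3* and 18 bases before it in *Car9*. The match shown for *Bnip3* is part of CACGTG, the E-box named above. The stretch of *Slc16a3* ends in a further ACGTG on the same strand, left in lower case. A match in these letters is no evidence of binding in these calvaria, which the data did not measure.

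Genes of the same pathways outside the 37 were read from 2 further lists. Of 56 other genes of glycolysis, pyruvate and glucose metabolism 37 were tested, 3 were lower by limma at an adjusted p under 0.05 and 0 were higher, where 3.63% of all genes were lower and 3.44% higher. At an unadjusted p under 0.05 limma gave 10 lower and 2 higher, and the median log2 fold change was -0.09. The 3 were *Pygl*, the liver glycogen phosphorylase, *Pgd* of the pentose phosphate pathway, and *Pfkfb2*, a further bifunctional enzyme. *Pygl* was at 5.30, 5.69 and 3.82 FPKM in the mutants and 13.2, 10.9 and 13.5 FPKM in the heterozygotes, without overlap (log2 fold change -1.27, SE 0.166, adjusted p by limma = 0.018). *Pgd* fell to 69.2 ± 16.1 FPKM in the mutants, against 158 ± 15.3 FPKM in the heterozygotes (SD, n = 3 each, adjusted p by limma = 0.0241). *Pfkfb2* fell to 5.33 ± 0.212 FPKM in the mutants, against 7.82 ± 0.247 FPKM in the heterozygotes (SD, n = 3 each, adjusted p by limma = 0.0287). Of 43 tested entries of 49 other hypoxia genes, 1 was higher and 3 were lower, with a median of 0.04. *Vldlr*, a lipoprotein receptor, was higher at 11.7, 10.9 and 23.5 FPKM in the mutants and 4.77, 6.23 and 5.38 FPKM in the heterozygotes (adjusted p by limma = 0.0485), and mutant replicate 3 was again higher, at 2.07 times the mean of the other mutants. The lower ones were *Pdgfb*, a growth factor chain, *Angptl4*, a lipase inhibitor, and *Cited2*, a competitor of HIF for its coactivator, with adjusted p of 0.0224, 0.0497 and 0.0495. *Cited2* was at 28.5, 29.5 and 26.5 FPKM in the mutants and 57.9, 37.4 and 49.0 FPKM in the heterozygotes, without overlap. Each of these 7 genes lost its call without at least 3 of the 6 libraries in turn, always heterozygous replicates 1 and 3 and mutant replicate 1, with the highest adjusted p of each between 0.0939 and 0.165. Mutant replicate 3 was over 2-fold above the mean of the other mutants in 7 of the 43 entries, *Fam162a*, *Bhlhe40*, *Ero1l*, *Vldlr*, *Ak4*, *Pgf* and *Stc2*, and in 0 of the 37 other glycolysis genes, where 1.53% of all genes were.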

How the data were processed

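Calvaria of 3 mutant and 3 heterozygous pups were measured by RNA sequencing of directional libraries depleted of ribosomal RNA, read from both ends on a NovaSeq instrument. Per the labels and the paper's methods, the authors used the FASTX-toolkit for adapters, aligned with TopHat2 2.1.1 to NCBI build37.2 and quantified with Cufflinks 2.1.1 and Cuffdiff 2.1.1. The deposited values are FPKM per gene, used here as deposited. Not given in the sources used here are the gene annotation, the strand setting and any scaling between libraries. FPKM hold no read counts, so precision was judged from the spread between pups. The 17 enzymes summed here made up 0.365 to 0.502% of all FPKM in the mutants and 0.492 to 0.569% in the heterozygotes.

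Of 32350 entries, the 13535 with a symbol and a mean of 0.5 FPKM or more over the libraries were tested. log2(FPKM + 0.5) was compared between genotypes with limma 3.58.1 in R 4.3.3 (eBayes with a trend), with Benjamini-Hochberg adjustment over these 13535 and a call under 0.05. A fold change on this scale understates that of low genes. Sums and shares were compared by exact two-sided permutation, computed with Python 3.11.15, and these p-values were not adjusted, since none can pass 0.05. The labels give replicate numbers but no litters, and p-values measure the spread between these pups.

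The 37 genes and all lists were chosen with earlier results of these data known. Values in every library were given, among the 37, for the gene called, for genes at least 0.5 in size without overlap of the groups, for the most abundant gene of each role, and for *Hif1a*, *Epas1*, *Slc2a1*, *Hk2*, *Pfkfb3*, *Ldha* and *Vegfa*, while the others shown in full were chosen after their values were seen. Promoters came from RefSeq on GRCm38.p6, another build than that of the table, and *Epas1*, *Ndrg1* and *Slc2a3* had none there. Alternatives were other pseudocounts, filters and scalings, no trend or no pooling of the spread, and zeros beside 20 FPKM or more set to missing. Further ones were sex as a covariate, a block by replicate number, and leaving out each library. The last was leaving out mutant replicate 3 and heterozygous replicate 2 together, which was chosen after seeing the data and also enters the ranges over the alternatives.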

Additional observations from a re-analysis of the deposited data

How the results depend on the processing

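Of the 37 genes, 24 kept the sign of their log2 fold change in all 18 alternative settings and 13 did not, none of which was called with all 6 libraries in the fit. Genes called over the whole table numbered 956, and 621 with no filter on low values, 104 by least squares without pooling of the spread, 3675 without both mutant replicate 3 and heterozygous replicate 2, and 14 to 2216 when 1 library was left out. Of the 37, the genes called lower numbered 1, and 0 with no filter or by least squares, 2 with median-of-ratios scaling or quantile normalization (with 870 and 1138 genes called over the whole table, in this order), 18 without both libraries, and 0 to 4 when 1 library was left out. Genes called higher numbered 0, and 2 without both libraries. With the replicate block 30 genes of the whole table and 0 of the 37 were called lower or higher, *Pkm2* having an adjusted p of 0.106. Deviations of same-numbered pups correlated at 0.0469, -0.23 and -0.138, so that the numbers do not pair the pups. The median of the hypoxia genes was 0.21, and -0.21 without both libraries and -0.20 to 0.33 when 1 library was left out, the lowest without mutant replicate 3. That of the glycolysis genes stayed between -0.18 and -0.38. Signs turned as follows. With median-of-ratios scaling the log2 fold change was -0.011 for *Slc2a3*, -0.034 for *Pfkl*, -0.038 for *Pfkm* and -0.0047 for *Vegfa*, and with quantile normalization -0.027 for *Slc2a3*. With sex as a covariate the mutants are compared with heterozygous replicate 2, the only male heterozygote, so that no calls are given for it. The log2 fold change was then -0.050 for *Slc2a3*, -0.25 for *Pfkl*, -0.37 for *Pfkm*, 0.034 for *Pfkfb3*, 0.86 for *Aldoc*, 0.018 for *Tpi1*, 0.32 for *Gapdh* and -0.16 for *Vegfa*. Without both libraries it was -0.20 for *Slc2a3*, -0.038 for *Pfkl*, -0.18 for *Egln3*, -0.078 for *Vegfa*, -0.046 for *Bnip3*, -0.49 for *Ankrd37* and -0.81 for *Car9*. When 1 library was left out it ran from -0.69 to 0.28 for *Aldoc*, -0.48 to 0.63 for *Ankrd37*, -0.096 to 0.42 for *Bnip3*, -0.59 to 0.79 for *Car9*, -0.081 to 1.20 for *Egln3*, -0.33 to 0.028 for *Gapdh*, -0.40 to 0.17 for *Ndrg1*, -0.18 to 0.028 for *Pfkfb3*, -0.17 to 0.14 for *Pfkl*, -0.13 to 0.20 for *Pfkm*, -0.23 to 0.24 for *Slc2a3* and -0.18 to 0.17 for *Vegfa*. Leaving out libraries also leaves fewer for the test, and beyond that the cause of these changes was not tested. Changes in genes of a few FPKM, such as *Egln3* and *Car12*, cannot be judged against counting error, since no counts were used.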
